A study of Mus musculus with 24 samples.

Results

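The transcripts described here are those of the mevalonate arm of cholesterol synthesis in mouse liver, from the condensation of acetyl-CoA units to the prenyl diphosphates. The list held 8 genes: Acat2, Hmgcs1, Mvk, Pmvk, Mvd, Idi1, Fdps and Ggps1. A gene was read from probe sets that the array annotation assigns to 1 symbol, and where there were several, from the one with the highest mean over the 24 arrays. On this rule 7 of the 8 genes, of 19938 genes in all, were measured, and Acat2, the cytosolic acetoacetyl-CoA thiolase, was not analysed here. Liver RNA came from 24 male litter mates of C57Bl6 background killed at 24 weeks of age, 1 array per mouse and 8 mice per genotype. The alb-SREBP-1a∆P mice express the N-terminal, transcriptionally active part of the human protein SREBP-1a with its MAPK phosphorylation sites mutated, the alb-SREBP-1a mice express that part with these sites intact, and C57Bl6 are wild type. Both transgenes are driven by the albumin promoter, which is active in hepatocytes. No genotype received a treatment, and all had standard chow and water at will. Values are log2 RMA signals, so a difference of 1 is a doubling. A transcript is said to rise or fall where its limma p, adjusted over all 35556 probe sets, was under 0.05.

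In this pathway the cytosol joins acetyl-CoA units to HMG-CoA, reduces it to mevalonate and, by a pair of phosphorylations and a decarboxylation, turns mevalonate into isopentenyl diphosphate, the building block of all isoprenoids. Farnesyl diphosphate stands at the branch to sterols, to geranylgeranyl diphosphate, to the side chain of ubiquinone, to dolichol and to the lipid anchors of small GTPases. The liver is a major site of this synthesis, and sterol regulatory element-binding proteins (SREBPs) are its known transcription factors, released from the endoplasmic reticulum when sterols are scarce.

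The human transgene itself was not analysed here, and whether the mouse Srebf1 probe set reads it was not tested. That probe set, for the gene of SREBP-1a and SREBP-1c, had a median of 8.64 in alb-SREBP-1a∆P, 9.38 in alb-SREBP-1a and 8.95 in C57Bl6 livers, so it does not mark both transgenic lines as carriers. Across the whole array the spread of values within an array was narrower in alb-SREBP-1a∆P (SD 2.02 to 2.09) than in alb-SREBP-1a (2.14 to 2.23) or C57Bl6 (2.18 to 2.25), and the first range overlapped neither of the others. Bright probe sets were lower as a class in alb-SREBP-1a∆P, so the median change of the tenth of probe sets of like brightness is given beside each member. The counts of cell type markers stand beside unlike shares of all probe sets. Of these, 27% rose and 20.2% fell in alb-SREBP-1a∆P against C57Bl6, and 6.77% rose and 3.98% fell in alb-SREBP-1a. Between the lines, 22.8% rose and 21.4% fell. Among markers of liver cell types, 2 of 5 Kupffer cell genes rose in alb-SREBP-1a∆P against C57Bl6 and 3 of 5 rose in alb-SREBP-1a against C57Bl6, while 3 of 5 fell in alb-SREBP-1a∆P livers against alb-SREBP-1a. The mean level of this list per array was 7.75 to 8.41 in alb-SREBP-1a∆P, 7.71 to 8.53 in alb-SREBP-1a and 7.51 to 8.04 in C57Bl6. All 3 neutrophil genes rose in alb-SREBP-1a∆P in both of its comparisons (mean level 5.057 to 5.420 in alb-SREBP-1a∆P, 4.621 to 4.906 in alb-SREBP-1a and 4.503 to 5.001 in C57Bl6). S100a8 and Ly6g lay below the median level of all probe sets (5.61). Against C57Bl6 they changed by 0.42 and 0.44, beside medians of 0.32 and 0.27 for probe sets of like brightness. Against alb-SREBP-1a they changed by 0.49 and 0.57, beside 0.28 for both. S100a9 changed by 0.49 and 0.39 in these comparisons, beside -0.04 and -0.08. Of 5 hepatocyte genes, 1 rose and 4 fell in alb-SREBP-1a∆P against C57Bl6, 1 rose and 2 fell in alb-SREBP-1a against C57Bl6, and none passed between the lines, with the mean level of the list at 13.4 to 13.6 in alb-SREBP-1a∆P, 13.5 to 13.7 in alb-SREBP-1a and 13.6 to 13.9 in C57Bl6. Probe sets as bright as these 5 hepatocyte genes had a median change of -0.20 in alb-SREBP-1a∆P against C57Bl6. Alb and Ttr each changed by -0.16 there, a smaller fall than that median. Cps1 changed by -0.44, Tat by -0.77 and Apoa2 by 0.26. The part of these shifts in the results below was not tested, and in whole liver fewer cells of a type and less RNA per cell cannot be told apart.

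With the intact SREBP-1a transgene, 4 of the 7 measured transcripts rose against C57Bl6, 1 fell and 2 did not pass the test. Over all probe sets, 10.8% passed in this comparison, 6.77% higher and 3.98% lower. The 4 that rose encode the enzyme that makes HMG-CoA, the first kinase, the decarboxylase and the isomerase, with changes between 0.41 and 0.50, whereas the kinase between Mvk and Mvd fell by 0.70. The median change of the 7 was 0.41, beside 0.01 for all probe sets. Probe sets of like brightness had medians from -0.01 to 0.01 for all 7 transcripts.

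**Figure D1:**
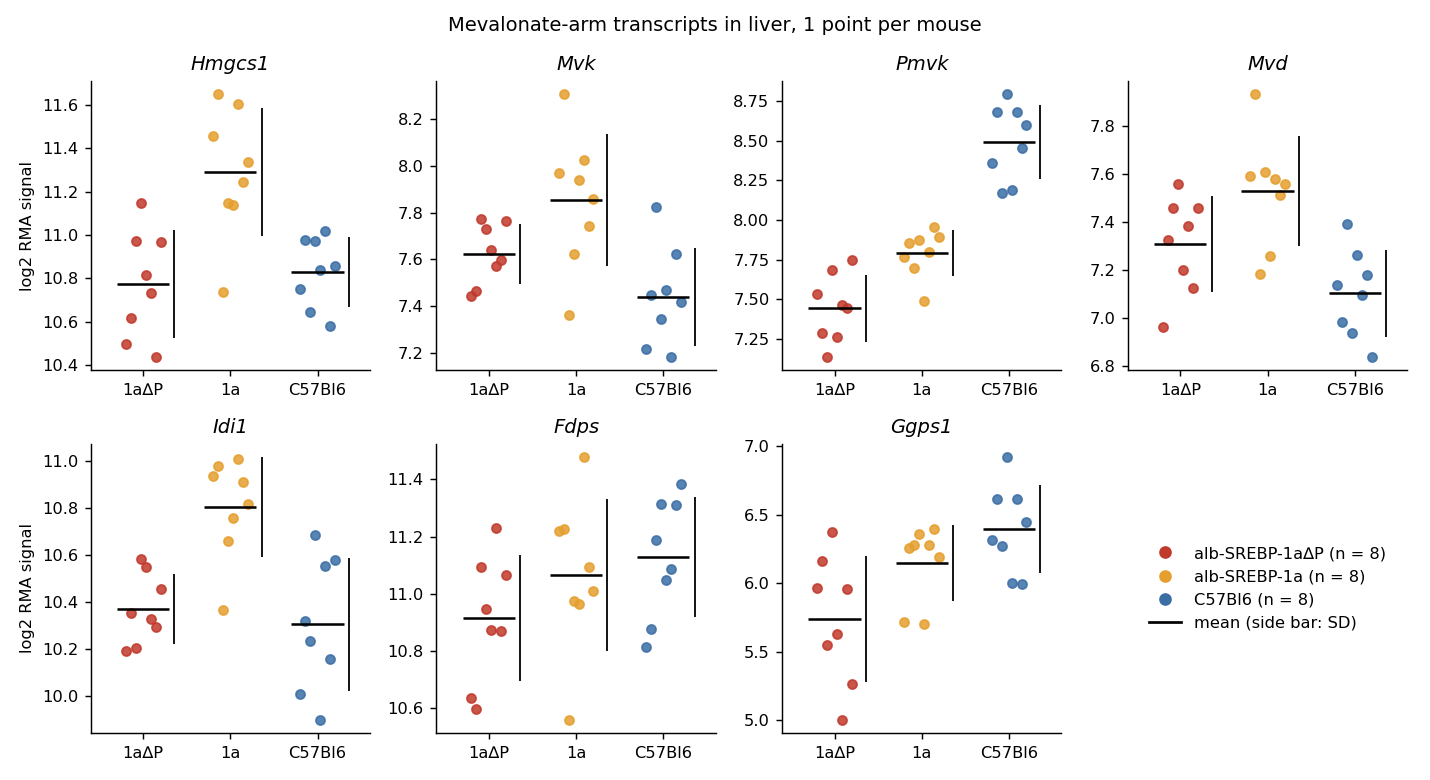
Log2 RMA signal (vertical axis, a scale of its own for each gene) of the 7 measured transcripts in 8 alb-SREBP-1a∆P (1a∆P), 8 alb-SREBP-1a (1a) and 8 C57Bl6 livers, 1 point per mouse, with the mean as a horizontal line and the SD as a bar beside it. Hmgcs1, Mvk, Mvd and Idi1 lie highest in alb-SREBP-1a, while Pmvk in both transgenic lines lies below every C57Bl6 mouse.

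Hmgcs1, the cytosolic HMG-CoA synthase, ranged from 10.74 over a median of 11.29 to 11.65 in alb-SREBP-1a and from 10.58 over 10.85 to 11.02 in C57Bl6 livers. In 7 of 8 alb-SREBP-1a mice it was above every C57Bl6 mouse, and the eighth, replicate 3, lay within the C57Bl6 range. Its change was 0.46 ± 0.12 (log2, SE; adjusted p = 0.0160).

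Mvk, mevalonate kinase, ranged from 7.36 over a median of 7.90 to 8.31 in alb-SREBP-1a and from 7.18 over 7.43 to 7.83 in C57Bl6. The groups overlapped, with 5 alb-SREBP-1a mice above all C57Bl6 mice. Its change of 0.41 ± 0.12 was the one nearest to the threshold (adjusted p = 0.0353). It did not pass after quantile normalization (0.37, adjusted p = 0.0726) or cyclic loess (0.39, adjusted p = 0.0595).

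Mvd, mevalonate diphosphate decarboxylase, whose reaction gives isopentenyl diphosphate, ranged from 7.18 over a median of 7.57 to 7.93 in alb-SREBP-1a and from 6.84 over 7.12 to 7.39 in C57Bl6. All but 2 of the alb-SREBP-1a mice were above all C57Bl6 mice, and the change was 0.42 ± 0.10 (adjusted p = 0.0126).

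Idi1, the isomerase that converts isopentenyl diphosphate to dimethylallyl diphosphate, ranged from 10.37 over a median of 10.86 to 11.01 in alb-SREBP-1a and from 9.90 over 10.28 to 10.69 in C57Bl6. Again 6 of 8 alb-SREBP-1a mice were above the C57Bl6 range, and the change was 0.50 ± 0.12 (adjusted p = 0.0128). A second single-symbol probe set of Idi1 gave 0.48 ± 0.12 (adjusted p = 0.0185). Without alb-SREBP-1a replicates 1 and 2, Hmgcs1 (0.37, adjusted p = 0.0607) and Mvk (0.32, adjusted p = 0.112) did not pass, and 2 of the 4 rises were left, those of Mvd and Idi1. At the thresholds of the methods, an unadjusted p under 0.05 in a t-test and 1.5-fold, which 3.7% of all probe sets passed, none of the 4 was called.

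The starts of these 4 genes are shown because their transcripts rose together. The Pmvk window at the start of its RefSeq gene, 1 of 2 windows, is shown because its transcript moved the other way. Each is the stretch of 250 bases before the RefSeq start (GRCm38.p6), 5′ to 3′ on the strand of the gene. Capitals mark CACCCCAC, the core of the sterol regulatory element, and the CCAAT box (CCAAT, or ATTGG where it lies on the other strand). Hmgcs1 is at chr13:119690101-119690350, Mvk at chr5:114444019-114444268, Idi1 at chr13:8885356-8885605 and Pmvk at chr3:89454291-89454540, all on the plus strand, and Mvd is at chr8:122443423-122443672 on the minus strand.
Hmgcs1: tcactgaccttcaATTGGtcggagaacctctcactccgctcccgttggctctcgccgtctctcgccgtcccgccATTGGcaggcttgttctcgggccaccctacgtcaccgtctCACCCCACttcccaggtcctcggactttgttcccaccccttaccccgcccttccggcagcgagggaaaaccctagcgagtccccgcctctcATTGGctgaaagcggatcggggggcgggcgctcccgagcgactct
Mvk: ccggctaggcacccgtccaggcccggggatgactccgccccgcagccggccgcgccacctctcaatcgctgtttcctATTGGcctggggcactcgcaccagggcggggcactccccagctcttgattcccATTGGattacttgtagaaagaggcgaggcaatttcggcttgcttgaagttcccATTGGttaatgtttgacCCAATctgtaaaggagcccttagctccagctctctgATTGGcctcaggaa
Mvd: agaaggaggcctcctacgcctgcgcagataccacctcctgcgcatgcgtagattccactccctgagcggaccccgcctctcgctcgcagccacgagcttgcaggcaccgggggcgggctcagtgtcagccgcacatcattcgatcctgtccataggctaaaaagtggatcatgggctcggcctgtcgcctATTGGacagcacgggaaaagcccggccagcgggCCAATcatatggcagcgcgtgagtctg
Idi1: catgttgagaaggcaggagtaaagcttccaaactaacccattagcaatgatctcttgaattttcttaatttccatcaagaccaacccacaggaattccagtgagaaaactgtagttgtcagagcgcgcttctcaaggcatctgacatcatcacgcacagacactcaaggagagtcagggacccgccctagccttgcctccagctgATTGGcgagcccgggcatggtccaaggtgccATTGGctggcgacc
Pmvk: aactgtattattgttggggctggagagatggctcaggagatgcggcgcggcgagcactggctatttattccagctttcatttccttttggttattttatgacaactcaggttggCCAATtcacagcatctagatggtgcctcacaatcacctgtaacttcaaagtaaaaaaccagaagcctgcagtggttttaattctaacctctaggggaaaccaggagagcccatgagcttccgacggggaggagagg
RefSeq promoter windows, which reach from 250 bases before to 50 bases after the start, were found for 7 of the 8 listed genes, with 2 windows for Pmvk and none for Fdps. The other Pmvk window has its start further downstream, and which start is used in liver was not tested. The letters of either Pmvk window therefore cannot be set against those of the 4 genes that rose. Both strands were searched and overlapping matches were counted. The sterol core stood in the windows of Hmgcs1, 136 bases before the start, and Acat2, 181 bases before it, and in 2.87% of 32851 windows of all genes. The sterol regulatory element of 10 bases, which extends this core by AT at its 5′ end, was in none of the members' windows and in 0.0913% of all windows. CCAAT occurred 4 times in the Hmgcs1 window, 5 times in Mvk, 3 times in Ggps1 and 2 times each in Mvd and Idi1, once in the shown Pmvk window, and neither in the other Pmvk window nor in that of Acat2, against a share of 37.4% of all windows with at least 1. The GC box GGGCGG was in the windows of 5 members, not in those of Pmvk or Ggps1, and in 35.7% of all windows. The E-box CACGTG, which SREBPs can also bind, was in no member's window and in 7.15% of all. Of the 4 genes whose transcripts rose, Hmgcs1 thus had the sterol core. The letters CCAAT were in all of them, but also in Ggps1 and Pmvk, whose transcripts did not rise. None of the 10 sterol arm genes with a window had the sterol core. Only the exact letters were searched, so variants of these motifs were not counted. A match of letters is a description of the sequence and not a site of binding.

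Pmvk, phosphomevalonate kinase, was the transcript that separated the genotypes most clearly. It ranged from 7.13 over a median of 7.45 to 7.75 in alb-SREBP-1a∆P, from 7.49 over 7.83 to 7.95 in alb-SREBP-1a and from 8.17 over 8.53 to 8.80 in C57Bl6. Every mouse of both transgenic lines was below every C57Bl6 mouse. The change against C57Bl6 was -1.05 ± 0.11 in alb-SREBP-1a∆P (adjusted p = 2.3e-06) and -0.70 ± 0.10 in alb-SREBP-1a (adjusted p = 0.000213), so that the signal was 48.3% of the wild-type level in alb-SREBP-1a∆P and 61.5% in alb-SREBP-1a. Such a full separation downwards was found for 6.47% of all probe sets in alb-SREBP-1a∆P livers and 1.03% in alb-SREBP-1a livers, and for 4.06% of them between the lines, where no member showed it. No member lay wholly above the other group in any comparison, while 5.34% of all probe sets did so in alb-SREBP-1a∆P against C57Bl6, 2.03% in alb-SREBP-1a against C57Bl6 and 1.88% between the lines. Probe sets of like brightness had medians of -0.29 in alb-SREBP-1a∆P livers and 0.01 in alb-SREBP-1a livers. The fall in each line passed under all 13 alternative settings, with changes from -1.21 to -0.79 in alb-SREBP-1a∆P livers and from -0.73 to -0.70 in alb-SREBP-1a livers.

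Neither enzyme that elongates the chain passed in alb-SREBP-1a against C57Bl6. Fdps, farnesyl diphosphate synthase, ranged from 10.56 over a median of 11.05 to 11.48 in alb-SREBP-1a and from 10.81 over 11.14 to 11.38 in C57Bl6, a difference of -0.06 with a 95% interval of -0.31 to 0.18. The interval thus leaves out changes of the size seen for the 4 transcripts that rose. Ggps1, geranylgeranyl diphosphate synthase, ranged from 5.70 over a median of 6.27 to 6.40 in alb-SREBP-1a and from 5.99 over 6.38 to 6.92 in C57Bl6, a difference of -0.25 with an interval of -0.55 to 0.05.

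In livers with the phosphorylation-deficient transgene, none of the 7 transcripts rose against C57Bl6, 2 fell (Pmvk and Ggps1) and 5 did not pass, and limma gave the same counts at an unadjusted p under 0.05. The background in this comparison was high, since 47.2% of all probe sets passed, 27% higher and 20.2% lower. The median change of the members was -0.06, beside 0.11 for all probe sets.

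Ggps1 ranged from 5.001 over a median of 5.796 to 6.374 in alb-SREBP-1a∆P and from 5.99 over 6.38 to 6.92 in C57Bl6. In 6 of 8 alb-SREBP-1a∆P mice it was below every C57Bl6 mouse, and the change was -0.66 ± 0.19 (adjusted p = 0.00825), beside a median of -0.04 for probe sets of like brightness. This call held under all 13 alternative settings (-0.82 to -0.66), among them the thresholds of the methods, which 16.7% of all probe sets passed here. In alb-SREBP-1a∆P, replicates 3, 6 and 8 (5.55, 5.001 and 5.26) lay below the median level of all probe sets (5.61). The SD of Ggps1 was 0.46 in alb-SREBP-1a∆P and 0.32 in C57Bl6.

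Hmgcs1 ranged from 10.44 over a median of 10.78 to 11.15 in alb-SREBP-1a∆P, an extent that includes that of C57Bl6, and differed from C57Bl6 by -0.06 (95% interval -0.28 to 0.17). Idi1 ranged from 10.19 over 10.34 to 10.59 in alb-SREBP-1a∆P, within the C57Bl6 range, and differed by 0.06 (-0.17 to 0.30). Fdps ranged from 10.60 over 10.91 to 11.23 in alb-SREBP-1a∆P and differed by -0.21 (-0.44 to 0.01). Probe sets as bright as these 3 had a median change of -0.20. The sign of the Hmgcs1 difference turned after quantile normalization (0.038) and cyclic loess (0.13), and that of Idi1 after centring each array on its median (-0.10), and Fdps fell under this centring alone of the 4 scalings (-0.37, adjusted p = 0.00883).

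Mvk ranged from 7.44 over a median of 7.62 to 7.77 in alb-SREBP-1a∆P and Mvd from 6.96 over 7.35 to 7.56. Both groups overlapped C57Bl6 widely, and the differences of 0.18 ± 0.09 (adjusted p = 0.113) and 0.21 ± 0.10 (adjusted p = 0.0951) did not pass, while probe sets of like brightness had medians of -0.29 and -0.23. After quantile normalization both rose against C57Bl6 (Mvk 0.34, adjusted p = 0.0187, and Mvd 0.34, adjusted p = 0.0255), and after cyclic loess both did so by 0.43 (adjusted p = 0.00449 for Mvk and 0.00584 for Mvd). After median centring neither passed (Mvk 0.022 and Mvd 0.045). Whether these 2 transcripts were higher in alb-SREBP-1a∆P than in wild type therefore depended on the scaling between arrays.

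**Figure D2:**
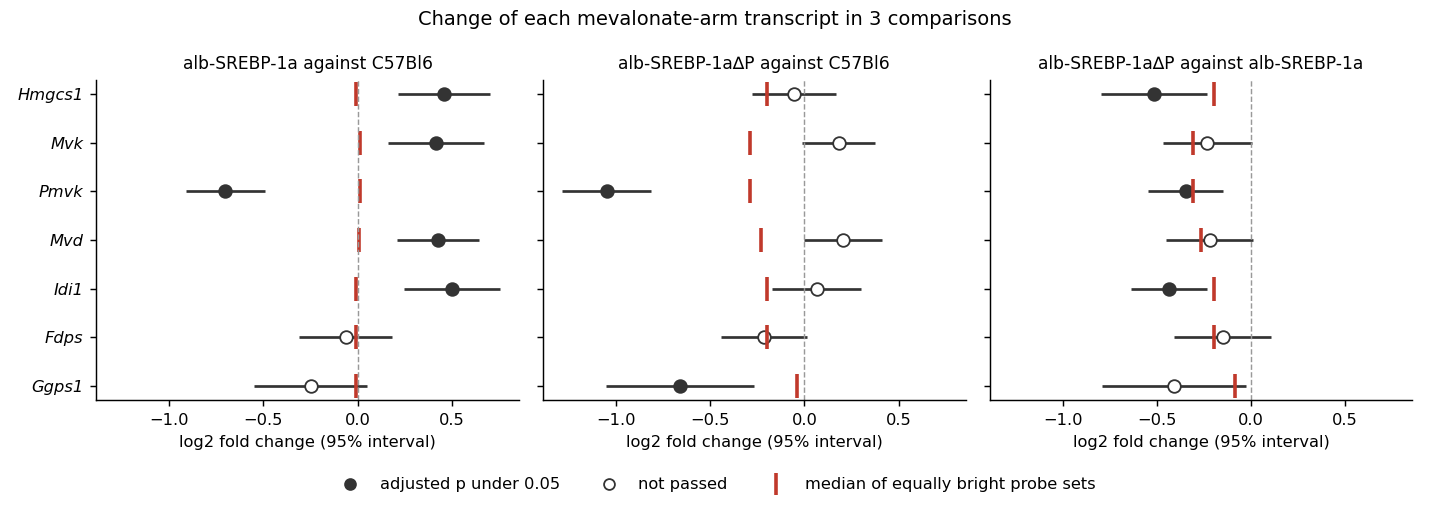
Log2 fold change of each transcript with its 95% interval (horizontal axis) in the 3 comparisons, filled where the adjusted p was under 0.05, with the median change of probe sets of like brightness as an upright red bar. In alb-SREBP-1a against C57Bl6 the bars stand at 0, while in both comparisons of alb-SREBP-1a∆P they stand between -0.31 and -0.04.

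The transgenes of both lines differ in the phosphorylation sites, and a difference in transgene level or insertion between the lines cannot be told apart from that of the sites. In alb-SREBP-1a∆P livers against alb-SREBP-1a, none of the 7 transcripts rose, 3 fell and 4 did not pass, and all 7 differences were negative. At an unadjusted limma p under 0.05, none was higher and 4 were lower. Of all probe sets 44.2% passed, 22.8% higher and 21.4% lower. The median change of the members was -0.35, beside 0.08 for all probe sets, and probe sets of like brightness had medians from -0.31 to -0.08.

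Hmgcs1 changed by -0.52 ± 0.13 (adjusted p = 0.00583), to 70.0% of the signal in alb-SREBP-1a, and 4 of the 8 alb-SREBP-1a∆P mice were below every alb-SREBP-1a mouse. Idi1 changed by -0.43 ± 0.10 (adjusted p = 0.00226), with 5 of 8 alb-SREBP-1a∆P mice below all alb-SREBP-1a mice, and by -0.52 ± 0.10 on its second probe set (adjusted p = 0.000779). For both genes the probe sets of like brightness had a median of -0.20. Pmvk changed by -0.35 ± 0.10 (adjusted p = 0.00837), close to the -0.31 of probe sets as bright as it. Its call was lost after quantile normalization (-0.16, adjusted p = 0.211) and cyclic loess (-0.06, adjusted p = 0.614).

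Ggps1 (-0.41 ± 0.18, adjusted p = 0.0737), Mvk (-0.23 ± 0.11, adjusted p = 0.0983), Mvd (-0.22 ± 0.11, adjusted p = 0.109) and Fdps (-0.15 ± 0.12, adjusted p = 0.315) did not pass. Ggps1 passed under 5 of 14 alternative settings (adjusted p from 0.0119 to 0.121 over the alternatives, changes from -0.58 to -0.41), among them array weights and the fit without alb-SREBP-1a∆P replicate 4 (-0.50, adjusted p = 0.0263). For Mvk and Mvd these differences lay near the medians of probe sets of like brightness, -0.31 and -0.27. The number of members that fell depended on scaling, since all 7 fell after each array was centred on its median and none after cyclic loess, where Hmgcs1 (-0.35, adjusted p = 0.0648) and Idi1 (-0.24, adjusted p = 0.0708) also did not pass. At the thresholds of the methods, which 11.5% of all probe sets passed, no member was called in this comparison.

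**Figure D3:**
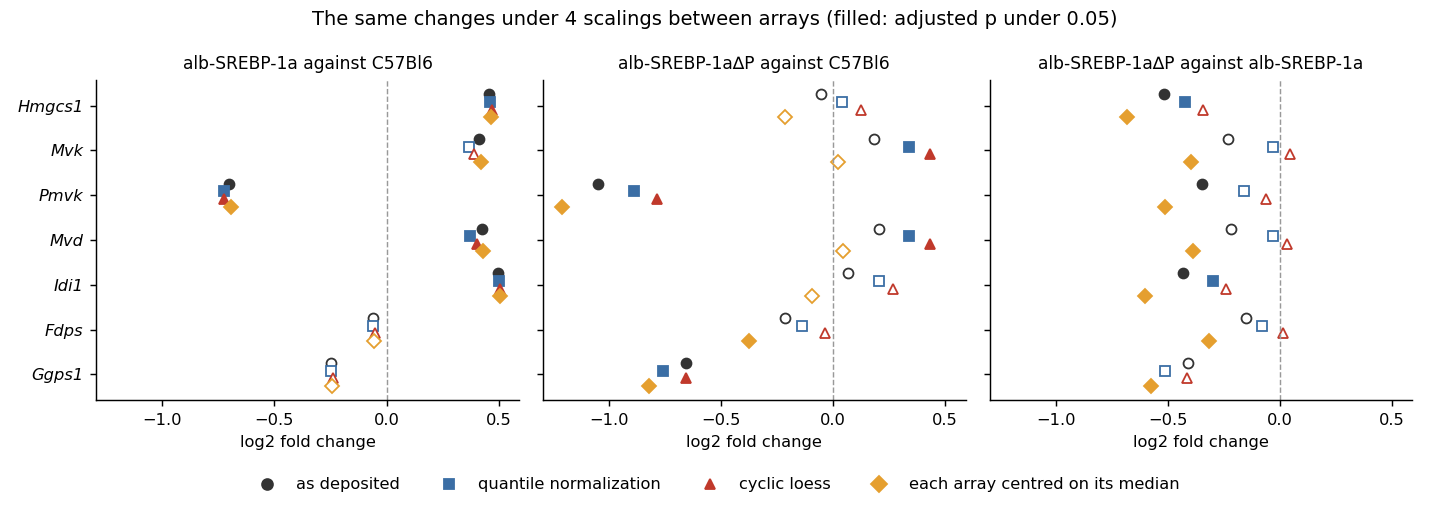
Log2 fold change of each transcript (horizontal axis) in the 3 comparisons, from the deposited values and after quantile normalization, cyclic loess and centring of each array on its median, filled where the adjusted p was under 0.05. The 4 settings lie close together in alb-SREBP-1a against C57Bl6 and spread apart in both comparisons of alb-SREBP-1a∆P, where median centring gives the lowest value for every transcript and cyclic loess the highest, except for Ggps1 against alb-SREBP-1a.

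Within a genotype, the 7 transcripts varied together to different degrees from mouse to mouse. Pearson correlations were tested for 21 pairs in each genotype, with exact two-sided permutation p-values over all orders of the 8 mice, adjusted over 63 relations. In alb-SREBP-1a 4 pairs passed, and none did in alb-SREBP-1a∆P or C57Bl6, where 4 and 5 pairs had an unadjusted p under 0.05, against 9 in alb-SREBP-1a. The median r was 0.22 in alb-SREBP-1a∆P, 0.67 in alb-SREBP-1a and 0.05 in C57Bl6. Whether the correlations differ between genotypes was not tested.

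The 4 pairs joined Hmgcs1, Idi1, Fdps and Mvk. Idi1 and Fdps had r = 0.94 (exact permutation p = 7.4e-05, adjusted p = 0.00469; Spearman's rho 0.98, exact p = 0.000397, adjusted p = 0.0250), and r = 0.91 without the 2 mice farthest from the median of Idi1. Hmgcs1 had r = 0.95 with Idi1 (exact permutation p = 0.000521, adjusted p = 0.0164; rho 0.93, exact p = 0.00223; r = 0.87 without the 2 farthest mice) and r = 0.94 with Fdps (exact permutation p = 0.00107, adjusted p = 0.0224; rho 0.95, exact p = 0.00114; r = 0.93 without the 2 farthest). Hmgcs1 and Mvk had r = 0.91 (exact permutation p = 0.00251, adjusted p = 0.0395), but rho of 0.86 did not pass after adjustment (exact p = 0.0107, adjusted p = 0.108), and r was 0.70 without the 2 farthest mice. In alb-SREBP-1a, replicate 3 was the lowest mouse for Hmgcs1, Mvk, Mvd, Idi1 and Fdps. Fdps, which did not pass between alb-SREBP-1a and C57Bl6, was thus high in the alb-SREBP-1a mice in which Hmgcs1 and Idi1 were high. Ggps1 and Pmvk had no pair that passed in any genotype.

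**Figure D4:**
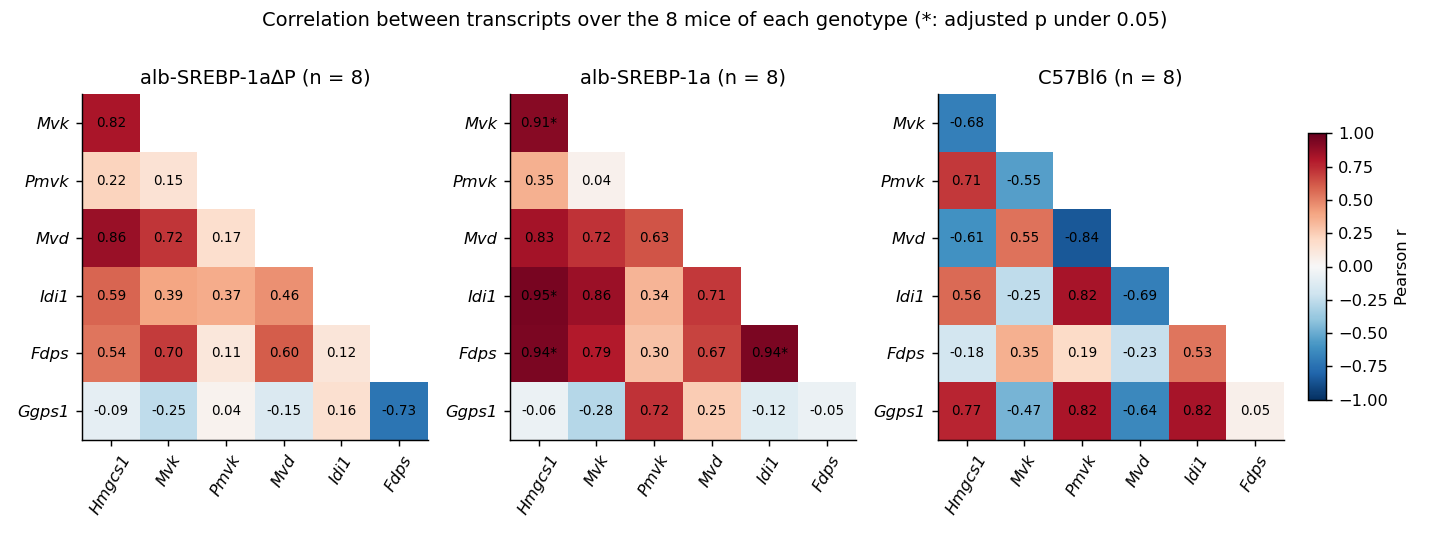
Pearson r between the log2 signals of each pair of transcripts over the 8 mice of alb-SREBP-1a∆P, alb-SREBP-1a and C57Bl6, coloured from -1 (blue) to 1 (red), with a star where the adjusted exact permutation p was under 0.05. The 4 starred pairs are all in alb-SREBP-1a, among Hmgcs1, Mvk, Idi1 and Fdps.

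Among all other single-symbol genes, those that deviated most alike from the genotype means over the 24 arrays were named for each transcript, as a description with no test. The sources read name no hybridisation batches, and what array handling adds to these r values was not tested. For Fdps they were Sqle, squalene epoxidase (r = 0.83), Msmo1, a sterol C4 methyl oxidase (r = 0.76), and Pcyt1b (r = 0.75). For Mvk they were Rogdi (r = 0.81) and the bile acid enzymes Cyp8b1 (r = 0.80) and Cyp7a1 (r = 0.78). Csad, an enzyme of taurine synthesis (r = 0.86), Tcp11l2 (r = 0.82) and Jun (r = 0.81) were nearest to Hmgcs1. Idi1 was nearest to Snord14e (r = 0.89), Asns, asparagine synthetase (r = 0.88), and Btg2 (r = 0.85). Pmvk was nearest to Upb1 (r = 0.87), Klhl28 (r = 0.86) and Dnase2b (r = 0.86), Mvd to Nfam1 (r = 0.73), Myh14 (r = 0.72) and Phgdh (r = 0.71), and Ggps1 to Usp33, Lyst and Pja1 (r = 0.88, 0.88 and 0.86). Fdps was the one member whose nearest genes included enzymes of the sterol arm.

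The steps after farnesyl diphosphate that lead to sterols were measured by 12 of 13 listed genes. In alb-SREBP-1a∆P against C57Bl6, 1 of the 12 rose and 5 fell, where 27% of all probe sets were higher and 20.2% lower. In alb-SREBP-1a against C57Bl6, 3 rose and 1 fell, beside 6.77% and 3.98% of all probe sets. In alb-SREBP-1a∆P livers against alb-SREBP-1a none rose and 7 fell, beside 22.8% and 21.4%, and 3 fell without alb-SREBP-1a replicates 1 and 2 and 4 with the replicate number as a block. The 3 that rose in alb-SREBP-1a were Fdft1, squalene synthase, at 0.33 ± 0.10 (adjusted p = 0.0479), Msmo1 at 0.43 ± 0.11 (adjusted p = 0.0218) and Nsdhl, a sterol C4 decarboxylating dehydrogenase, at 0.36 ± 0.08 (adjusted p = 0.00990), and 1 of the 12 was higher without alb-SREBP-1a replicates 1 and 2 or with the replicate number as a block. A second single-symbol probe set of Fdft1 lay closer between these genotypes, with means of 10.67 in alb-SREBP-1a and 10.57 in C57Bl6. On the chosen probe set the means were 11.35 and 11.01. The rise of Fdft1 thus rests on 1 of its probe sets. The median change of the 12 was 0.05 in alb-SREBP-1a against C57Bl6, where that of the mevalonate arm was 0.41. Nsdhl also rose in alb-SREBP-1a∆P (0.27 ± 0.07, adjusted p = 0.00415), with all 8 mice above all C57Bl6 mice.

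The gene of the sterol arm that fell in both lines was Lbr, the lamin B receptor, which is also a sterol C14 reductase. Its change was -0.84 ± 0.11 in alb-SREBP-1a∆P (adjusted p = 1.49e-05) and -0.48 ± 0.08 in alb-SREBP-1a (adjusted p = 0.000618), and in each line all 8 mice were below all C57Bl6 mice, as for Pmvk. Lss, lanosterol synthase (-0.51 ± 0.11, adjusted p = 0.00143), and Sc5d, a sterol C5 desaturase (-0.29 ± 0.08, adjusted p = 0.00878), fell in alb-SREBP-1a∆P against C57Bl6. Cyp51, the lanosterol demethylase, fell in alb-SREBP-1a∆P livers against alb-SREBP-1a (-0.44 ± 0.09, adjusted p = 0.00148). Probe sets as bright as Lss, Sc5d and Cyp51 had a median change of -0.20 in both comparisons of alb-SREBP-1a∆P. Those as bright as Lbr had -0.23 in alb-SREBP-1a∆P against C57Bl6 and 0.01 in alb-SREBP-1a against C57Bl6. The counts in both comparisons of alb-SREBP-1a∆P depended on scaling: after cyclic loess 3 rose and 1 fell against C57Bl6, and 1 rose and 1 fell against alb-SREBP-1a.

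The genes whose products use farnesyl or geranylgeranyl diphosphate outside the sterol arm were measured by 12 of 14 listed genes, and none of them rose in any of the 3 comparisons, also at an unadjusted limma p under 0.05. In alb-SREBP-1a∆P 9 fell against C57Bl6 and 8 against alb-SREBP-1a (5 after cyclic loess), while 3 fell in alb-SREBP-1a against C57Bl6 (6 after quantile normalization or cyclic loess). The share of all probe sets that fell was 20.2%, 21.4% and 3.98% in these comparisons, and the share that rose was 27%, 22.8% and 6.77%. Their median change in alb-SREBP-1a∆P was -0.54 against C57Bl6 and -0.33 against alb-SREBP-1a. Nus1 and Dhdds, the subunits of the dolichol-forming prenyltransferase, changed by -0.86 ± 0.08 (adjusted p = 1.1e-06) and -0.67 ± 0.09 (adjusted p = 2.77e-05) in alb-SREBP-1a∆P against C57Bl6, and by -0.29 ± 0.08 (adjusted p = 0.0217) and -0.30 ± 0.09 (adjusted p = 0.0421) in alb-SREBP-1a against C57Bl6.

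Pggt1b, the beta subunit of geranylgeranyl transferase I, changed by -0.72 ± 0.10 (adjusted p = 2.4e-05), and Rabggtb, the beta subunit of the Rab geranylgeranyl transferase, by -0.82 ± 0.12 (adjusted p = 3.66e-05) in alb-SREBP-1a∆P against C57Bl6. For Nus1, Dhdds, Pggt1b and Rabggtb all 8 alb-SREBP-1a∆P mice were below all C57Bl6 mice, and probe sets of like brightness had medians of -0.20 to -0.23. Against alb-SREBP-1a, Fnta, the alpha subunit that farnesyltransferase and geranylgeranyl transferase I share (-0.65 ± 0.10, adjusted p = 0.000279), and Pdss2, a subunit of the enzyme that makes the ubiquinone side chain (-0.53 ± 0.09, adjusted p = 0.000583), fell in all 8 mice below the alb-SREBP-1a range. Coq2, which attaches that side chain to the ring, was below the C57Bl6 range in all 8 alb-SREBP-1a mice (-0.31 ± 0.06, adjusted p = 0.00334). In alb-SREBP-1a∆P against C57Bl6, Ggps1 and 9 of these 12 genes thus fell.

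**Figure D5:**
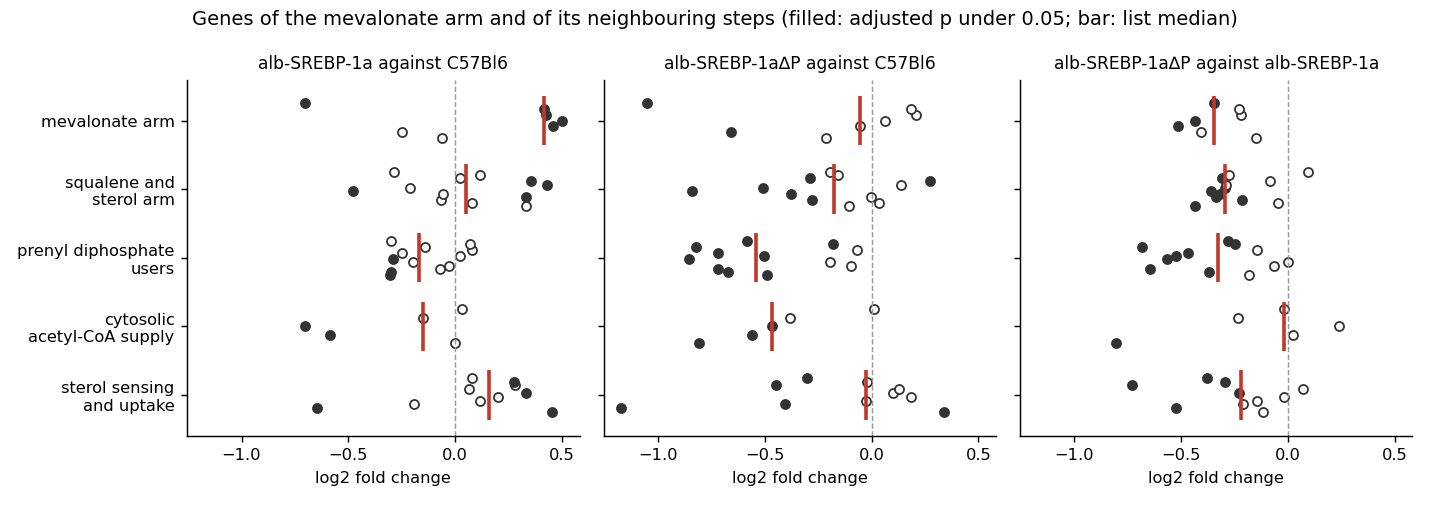
Log2 fold change (horizontal axis) of each measured gene of the mevalonate arm (7), the squalene and sterol arm (12), the users of prenyl diphosphates (12), the cytosolic acetyl-CoA supply (5) and sterol sensing and uptake (10) in the 3 comparisons, filled where the adjusted p was under 0.05, with the median of each list as a red bar. The mevalonate arm has the highest median in alb-SREBP-1a against C57Bl6 (0.41), and the users of prenyl diphosphates have the lowest in alb-SREBP-1a∆P against C57Bl6 (-0.54).

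Upstream of the arm, 5 of 5 listed genes of cytosolic acetyl-CoA supply were measured, and none rose in any comparison, also at an unadjusted limma p under 0.05, although after cyclic loess 1 rose in alb-SREBP-1a∆P livers against alb-SREBP-1a. Of all probe sets, 27% rose and 20.2% fell in alb-SREBP-1a∆P against C57Bl6, and 6.77% rose and 3.98% fell in alb-SREBP-1a. Between the lines, 22.8% rose and 21.4% fell. Acly, ATP citrate lyase, changed by -0.56 ± 0.13 in alb-SREBP-1a∆P (adjusted p = 0.00182) and -0.58 ± 0.13 in alb-SREBP-1a (adjusted p = 0.00905) against C57Bl6. Acss2, acetyl-CoA synthetase, changed by -0.46 ± 0.12 in alb-SREBP-1a∆P (adjusted p = 0.00389) and -0.70 ± 0.15 in alb-SREBP-1a (adjusted p = 0.00545). Hmgcs1 on one side and Acly and Acss2 on the other thus moved in opposite directions in alb-SREBP-1a. Aacs, acetoacetyl-CoA synthetase, fell in alb-SREBP-1a∆P against C57Bl6 (-0.81 ± 0.20, adjusted p = 0.00413) and against alb-SREBP-1a (-0.80 ± 0.21, adjusted p = 0.00674), and after cyclic loess 1 of the 5 genes was lower in alb-SREBP-1a∆P against C57Bl6, in place of 3.

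Of the genes of sterol sensing and uptake, 10 of 13 were measured. Insig1, which retains SREBPs in the endoplasmic reticulum and is itself their known target, rose against C57Bl6 in alb-SREBP-1a∆P livers (0.34 ± 0.09, adjusted p = 0.00777) and in alb-SREBP-1a livers (0.45 ± 0.09, adjusted p = 0.00350), and its difference between alb-SREBP-1a∆P livers and alb-SREBP-1a livers did not pass (-0.12 ± 0.10, adjusted p = 0.348). Its relative Insig2 fell in both lines, with changes of -1.17 ± 0.11 in alb-SREBP-1a∆P (adjusted p = 1.05e-06) and -0.65 ± 0.17 in alb-SREBP-1a (adjusted p = 0.0206). Srebf2, the gene of SREBP-2, the known main driver of cholesterol synthesis, ranged from 7.76 over a median of 7.98 to 8.32 in alb-SREBP-1a∆P, from 8.12 over 8.26 to 8.47 in alb-SREBP-1a and from 7.73 over 8.004 to 8.22 in C57Bl6. It rose in alb-SREBP-1a against C57Bl6 (0.28 ± 0.08, adjusted p = 0.0374) and fell in alb-SREBP-1a∆P livers against alb-SREBP-1a (-0.30 ± 0.09, adjusted p = 0.0153), with -0.02 ± 0.09 between alb-SREBP-1a∆P and C57Bl6 (adjusted p = 0.866). The fall between the lines was close to the median of -0.31 for probe sets as bright as Srebf2. In alb-SREBP-1a∆P against C57Bl6 that median was -0.29, and in alb-SREBP-1a against C57Bl6 it was 0.01.

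Srebf1 changed by -0.45 ± 0.11 (adjusted p = 0.00329) in alb-SREBP-1a∆P against C57Bl6 and by -0.73 ± 0.14 (adjusted p = 0.00109) against alb-SREBP-1a, while its 0.28 ± 0.12 in alb-SREBP-1a against C57Bl6 did not pass (adjusted p = 0.168). Npc2, a lysosomal cholesterol carrier, rose in alb-SREBP-1a against C57Bl6 (0.33 ± 0.10, adjusted p = 0.0456). Mbtps1, the protease that makes the first cut of SREBP precursors (-0.40 ± 0.09, adjusted p = 0.00191), fell in alb-SREBP-1a∆P against C57Bl6, and Stard4, a cytosolic cholesterol carrier (-0.38 ± 0.12, adjusted p = 0.0218), in alb-SREBP-1a∆P livers against alb-SREBP-1a. Probe sets of like brightness had medians of -0.29 for Mbtps1 and -0.31 for Stard4 in these comparisons. Over the list, 1 rose and 4 fell in alb-SREBP-1a∆P against C57Bl6 (5 and 1 after cyclic loess), 3 rose and 1 fell in alb-SREBP-1a against C57Bl6 (1 and 2 after quantile normalization, 2 and 2 after cyclic loess), and none rose and 5 fell in alb-SREBP-1a∆P livers against alb-SREBP-1a (1 rose and 1 fell after quantile normalization or cyclic loess, 2 fell without alb-SREBP-1a replicates 1 and 2, and 1 fell with the replicate block). Beside these counts, the shares of all probe sets that rose and fell were 27% and 20.2%, 6.77% and 3.98%, and 22.8% and 21.4%.

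Close copies of members were read as well, since similar sequences could share probes, and 3 of 4 were measured. Acat3, a close copy of Acat2, fell in alb-SREBP-1a∆P (-0.54 ± 0.09, adjusted p = 0.000212) and in alb-SREBP-1a (-0.32 ± 0.06, adjusted p = 0.00367) against C57Bl6. Acat1, the mitochondrial thiolase, fell in alb-SREBP-1a∆P against C57Bl6 (-0.58 ± 0.09, adjusted p = 6.37e-05) and against alb-SREBP-1a (-0.42 ± 0.08, adjusted p = 0.000598). Idi2, a copy of Idi1, had medians of 3.98 in alb-SREBP-1a∆P, 3.66 in alb-SREBP-1a and 3.71 in C57Bl6, below the median level of all probe sets (5.61), and passed in no comparison. Acat1 was also 1 of 3 measured genes of mitochondrial HMG-CoA and ketone body metabolism, none of which rose (at an unadjusted limma p under 0.05, 1 was higher in alb-SREBP-1a against C57Bl6), and beside it Bdh1, a ketone body dehydrogenase, fell (-0.23 ± 0.09, adjusted p = 0.0408) in alb-SREBP-1a∆P livers against alb-SREBP-1a. Probe sets as bright as Acat1, Acat3 and Bdh1 had medians of -0.20 in both comparisons of alb-SREBP-1a∆P. The fall of Bdh1 was close to that median, and its alb-SREBP-1a∆P replicate 3 was low (9.09, nearest mouse 9.43). As background, 27% of all probe sets rose and 20.2% fell in alb-SREBP-1a∆P against C57Bl6. In alb-SREBP-1a against C57Bl6, 6.77% rose and 3.98% fell, and between the lines 22.8% rose and 21.4% fell.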

How the data were processed

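Liver RNA (150 ng per array) was hybridised to Affymetrix Mouse Gene 1.0 ST arrays. The deposited values are log2 signals, made by the authors with RMA (Expression Console 1.1). Further settings and the annotation build are not given in the sources read. They cover 35556 probe sets (21789 with 1 gene symbol, 1621 with several, 12146 with none) and range from 0.833 to 15.0. RMA brings all arrays to a common scale, so a shift of most transcripts in one genotype would be partly removed, and the array-wide differences in spread remain.

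The genotypes were compared by limma 3.58.1 (R 4.3.3), 8 arrays against 8, with p adjusted by Benjamini-Hochberg over all probe sets, and tested on simulated data. The p-values measure the spread between mice, and the number of arrays limits precision. Errors are standard errors, and intervals are 95%. Correlations were computed within each genotype in scipy 1.17.1 and numpy 2.4.6 (Python 3.11.15). Promoter windows came from RefSeq (GRCm38.p6).

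The members and lists were chosen with earlier results of these data known. Text names all members, up to 4 genes per list and comparison with the smallest p among those past the threshold, Srebf1, Srebf2, close copies, and 3 most alike genes per member. Alternatives were 3 scalings between arrays, a filter on dim probe sets (below 5.61), 1 fit of all 24 arrays, the replicate number as a block, a variance trend, array weights, testing 1 probe set per gene, averaging all probe sets of a gene, the methods' t-test at an unadjusted p under 0.05 and 1.5-fold and after Benjamini-Hochberg, and fits leaving out replicate 4 of alb-SREBP-1a∆P, or replicates 1 and 2 of alb-SREBP-1a. Some listed genes are not reported here. Of sinusoidal endothelial genes, 1 of 5 fell in alb-SREBP-1a∆P and 1 of 5 rose in alb-SREBP-1a against C57Bl6, and 3 fell in alb-SREBP-1a∆P livers against alb-SREBP-1a. Of 5 stellate cell genes, 1 fell in alb-SREBP-1a∆P against C57Bl6, none passed in alb-SREBP-1a, and 1 rose and 2 fell in alb-SREBP-1a∆P livers against alb-SREBP-1a. Of 5 lymphocyte genes, 1 rose in alb-SREBP-1a∆P against C57Bl6 and 1 fell against alb-SREBP-1a, and none of 4 cholangiocyte or 2 red cell genes passed in any comparison. Beside these counts, 27% of all probe sets rose and 20.2% fell in alb-SREBP-1a∆P against C57Bl6. The shares were 6.77% and 3.98% in alb-SREBP-1a against C57Bl6, and 22.8% and 21.4% between the lines.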

Additional observations from a re-analysis of the deposited data

Results flagged for a closer look

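No array of the 7 members stood apart from its group. Over the members and the other named genes, 105 groups of 8 arrays were looked at, and 4 had 1 array far from the other 7, where chance alone marks about 1 group in 20. Bdh1 in alb-SREBP-1a∆P was 9.09 in replicate 3, next to 9.43 in the nearest mouse. Nsdhl in alb-SREBP-1a∆P was 10.65 in replicate 6 and 10.53 in the nearest mouse. Nus1 was low in alb-SREBP-1a replicate 6 (8.71, nearest 8.85) and in C57Bl6 replicate 3 (8.78, nearest 9.10).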

How the results depend on the processing

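For the 7 members, 241 of 280 fold changes under other settings kept their direction and their side of the threshold, 15 newly passed, 17 no longer did and 7 turned, and 323 of 372 list counts stayed within 1.5 times. The 4 rises in alb-SREBP-1a against C57Bl6 became 2 with the replicate number as a block, 2 without alb-SREBP-1a replicates 1 and 2, and 0 at the methods' t-test thresholds, where 1.5-fold excludes changes of this size. In alb-SREBP-1a∆P against C57Bl6, where 0 members rose, 2 did (Mvk and Mvd) under quantile normalization, cyclic loess or array weights. In alb-SREBP-1a∆P livers against alb-SREBP-1a the 3 falls became 7 after median centring, 0 after cyclic loess and 0 at the methods' thresholds; the cause was not tested. Sign changes against C57Bl6 in alb-SREBP-1a∆P were Hmgcs1 under quantile normalization (0.038) and cyclic loess (0.13) and Idi1 under median centring (-0.10) and array weights (-0.0089), and against alb-SREBP-1a, under cyclic loess, Mvk (0.043), Mvd (0.030) and Fdps (0.015). None of these 7 values passed. The correlation of Mvk and Mvd in alb-SREBP-1a was -0.24 without the 2 mice farthest from the median, and after cyclic loess 5 pairs passed there. The share of higher calls over all probe sets in alb-SREBP-1a∆P was 57.1% against C57Bl6 and 51.6% against alb-SREBP-1a, 40.6% and 41.1% after quantile normalization and 31.9% and 23.9% after median centring. For alb-SREBP-1a against C57Bl6 it was 63.0%, and 51.6% after quantile normalization. The median change over the whole array in alb-SREBP-1a∆P against C57Bl6 was 0.11, and between -0.05 and 0.00 under the other 3 scalings. Whether replicate numbers pair the mice was not tested. Same-numbered mice had correlations of deviations from -0.12 to 0.28, with at most 2 of 8 pairs above 0.1 in any comparison. At most 3 of 8 mice correlated best with their own number. The block also left Mvk at adjusted p = 0.102 and Mvd at 0.0637 in alb-SREBP-1a against C57Bl6.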
